A study of Mus musculus with 6 samples.

Results

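The genes described here are 10 genes of fatty acid uptake and oxidation, Cd36, Cpt1a, Cpt2, Acadm, Acadl, Acadvl, Hadha, Hadhb, Etfb and Eci1, taken by their symbols from tables that list 26771 genes. All 10 had a value in every one of the 6 libraries and all 10 passed the filter on low values. The libraries hold messenger RNA of γδT17 cells, a kind of γδ T lymphocyte that secretes interleukin-17. The Induced group (3 libraries, mice A, B and C) is made of cells collected on day 8 of a splenocyte culture driven by IL-1β and IL-23 and then purified with a magnetic pan T cell kit. The Initial group (3 libraries, the same mouse letters) is made of cells taken from spleen by sorting and not cultured; the sort gate is not stated. Every mouse was C57BL/6 and TCRβ-/-, so it lacked αβ T cells; age and sex are not stated in the labels. Culture and the way the cells were purified differ together between the groups and cannot be told apart.

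Fatty acids enter cells with the help of membrane proteins such as CD36, are joined to coenzyme A, and cross into mitochondria as carnitine esters, made by CPT1 and turned back by CPT2. Inside, acyl-CoA dehydrogenases of different chain-length preference start each round of β-oxidation, the trifunctional protein completes it for long chains, isomerases prepare the double bonds of unsaturated chains, and the electron transfer flavoprotein carries electrons on to the respiratory chain. Lymphocytes use this pathway to different degrees at rest and during growth, and IL-17-producing γδ T cells have been described as lipid-using cells.

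The values are FPKM, fragments per kilobase of transcript scaled to the mapped fragments of the library, and are therefore per length. Depth was estimated roughly from the steps between low values, at 22000000 to 22600000 fragments in Induced libraries and 19100000 to 22500000 in Initial libraries. The depth was chosen as the one at which most low values came within 0.15 of whole fragments, and there 42.3 to 47.7% did. Chance gives 30% at a depth fixed in advance, so this share does not test the estimate. The T cell markers Cd3d, Cd3e, Cd3g, Cd247 and Trdc were abundant in every library, with sums of 1378 to 1502 FPKM in Induced cells and 1560 to 1696 FPKM in Initial cells. Tests ran on log2(FPKM + 1) across 11265 genes with limma, and a gene was called at a Benjamini-Hochberg adjusted p under 0.05. Means carry the SD over 3 libraries, and log2 fold changes are Induced minus Initial with their standard error (SE).

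The pathway did not move as one. Cpt2, Acadm, Acadl and Etfb rose after culture, and Cd36, Cpt1a, Acadvl, Hadha, Hadhb and Eci1 fell, so that both carnitine palmitoyltransferases, and the acyl-CoA dehydrogenases among themselves, went in opposite directions. With every library scaled to the summed level of the CD3 chains and Trdc (the T cell scaling), Acadvl, Hadha and Eci1 no longer passed. All 10 genes passed the test, in a comparison in which 70.4% of all tested genes passed, 37.3% upwards and 33.1% downwards. The 3 libraries of each group did not overlap for any of the 10 genes, and this held for 75.4% of all tested genes. The sizes were ordinary: the median absolute log2 fold change was 0.49 over the 10 genes and 0.50 over all tested genes. Only Cd36 changed at least 2-fold, as did 25.2% of all tested genes. The summed level of the 10 genes was 453 to 476 FPKM in Induced libraries and 484 to 488 FPKM in Initial libraries, which is 0.101 to 0.106% and 0.105 to 0.113% of all FPKM.

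**Figure D1:**
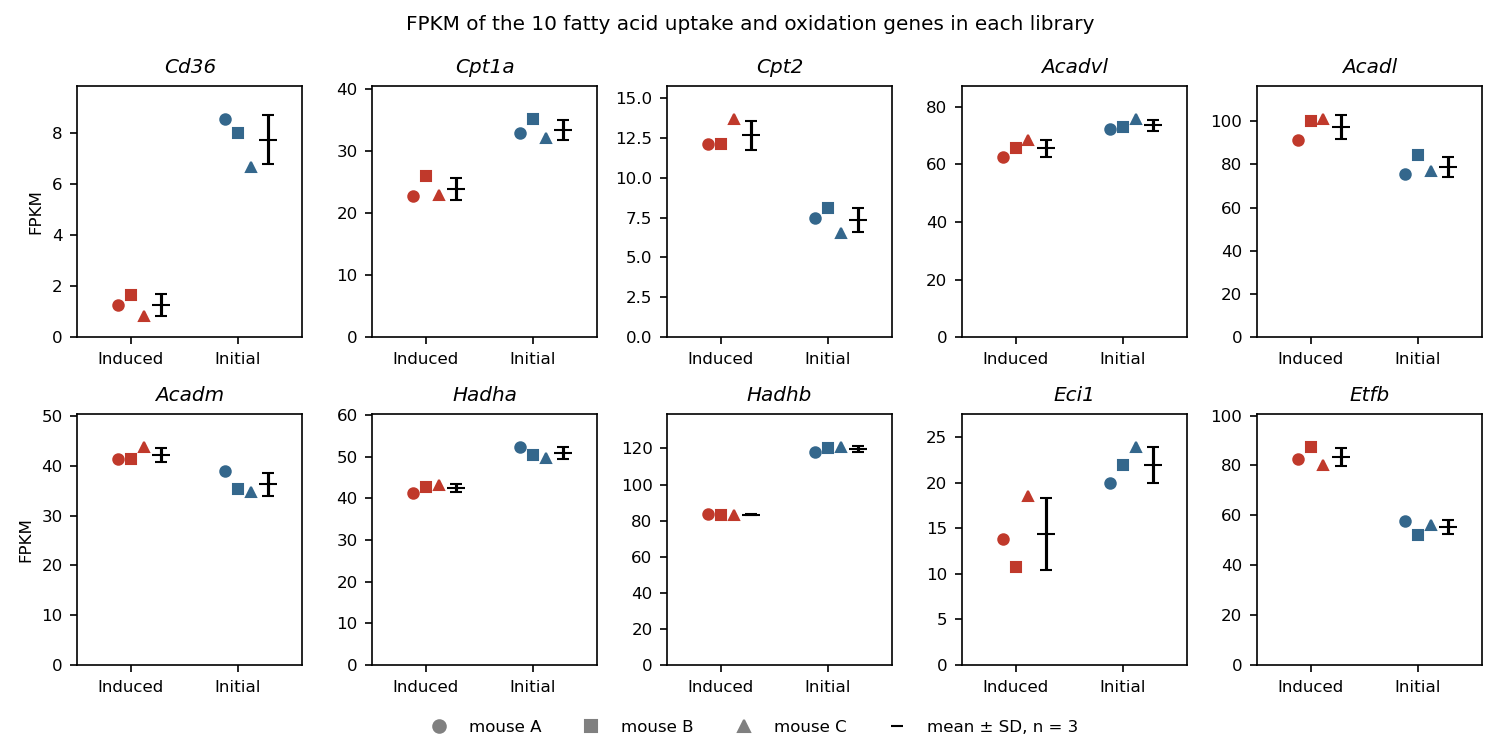
FPKM (vertical axes, each starting at 0) of the 10 genes in the 3 Induced libraries (left, red) and the 3 Initial libraries (right, blue), with mouse A as a circle, B as a square and C as a triangle and the mean ± SD beside them. No Induced point lies within the Initial range of the same gene, and the Induced points of Eci1 spread from 10.7 to 18.6 FPKM.

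CD36, a scavenger receptor and fatty acid translocase of the plasma membrane, had the lowest transcript level after culture and the largest change. Cd36 (ENSMUSG00000002944, chromosome 5, 17781690 to 17888801, minus strand, GRCm38) had 1.27, 1.67 and 0.827 FPKM in Induced cells A, B and C, against 8.54, 7.99 and 6.65 FPKM in Initial cells A, B and C. Every Induced library lay far below every Initial library. The log2 fold change was -1.96 (SE 0.16, limma adjusted p = 1.7e-05), and the ratio of Initial to Induced means was 6.16. Because the level was low, the logged value depended on the pseudocount, at -2.57 with 0.1 and -1.02 with 5. At the estimated depth the Induced values rest on about 63.5 to 126 fragments each, and the Initial values on about 464 to 653.

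Cd36 is also known from splenic macrophages, platelets, red cell precursors and some B cells, and most markers listed for these cells moved with it. All 14 splenic macrophage markers were lower in every Induced than in every Initial library, with sums of 7.36 to 11.5 FPKM in Induced and 645 to 1146 FPKM in Initial libraries, and Mertk had no row, taken as 0, in any Induced library. Of 12 B cell markers 11 were lower, with sums of 144 to 230 FPKM in Induced and 1712 to 2003 FPKM in Initial libraries. The other, Blk, is in these sums and was higher (73.0 to 113 FPKM in Induced and 20.9 to 21.9 FPKM in Initial libraries). It made up much of the Induced sums. All 10 red cell markers were lower, with sums of 1.28 to 1.80 FPKM in Induced and 1224 to 1749 FPKM in Initial libraries. Of 6 platelet and megakaryocyte markers 5 were lower, and Ppbp, Gp9 and Gp1bb had no row in any Induced library. The 5 lower markers reached at most 2.98 FPKM in any Initial library and did not pass the filter on low values. The sixth, Itgb3, was higher and set the sum, which was 17.9 to 22.4 FPKM in Induced and 11.6 to 17.3 FPKM in Initial libraries. Of the dendritic cell markers 6 of 7 were lower (3.31 to 8.44 FPKM in Induced and 16.7 to 21.9 FPKM in Initial libraries). Neutrophil and monocyte markers were mixed, with 2 of 8 lower and 2 higher (340 to 1302 FPKM in Induced and 602 to 840 FPKM in Initial libraries). Ly6c2 (119 to 1082 FPKM) and Ccr2 (217 to 241 FPKM) made up most of the Induced sums. In Initial libraries they had 394 to 611 and 17.3 to 19.9 FPKM. Lyz2, among the lower ones, had 1.45 to 2.13 FPKM in Induced and 99.7 to 266 FPKM in Initial libraries. Of 6 endothelial and stromal markers 1 was lower (44.5 to 62.3 FPKM in Induced and 57.1 to 69.4 FPKM in Initial libraries). The part of other cells in the fall of Cd36 was not tested, and in bulk RNA fewer cells of a type and less RNA per cell cannot be told apart.

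**Figure D2:**
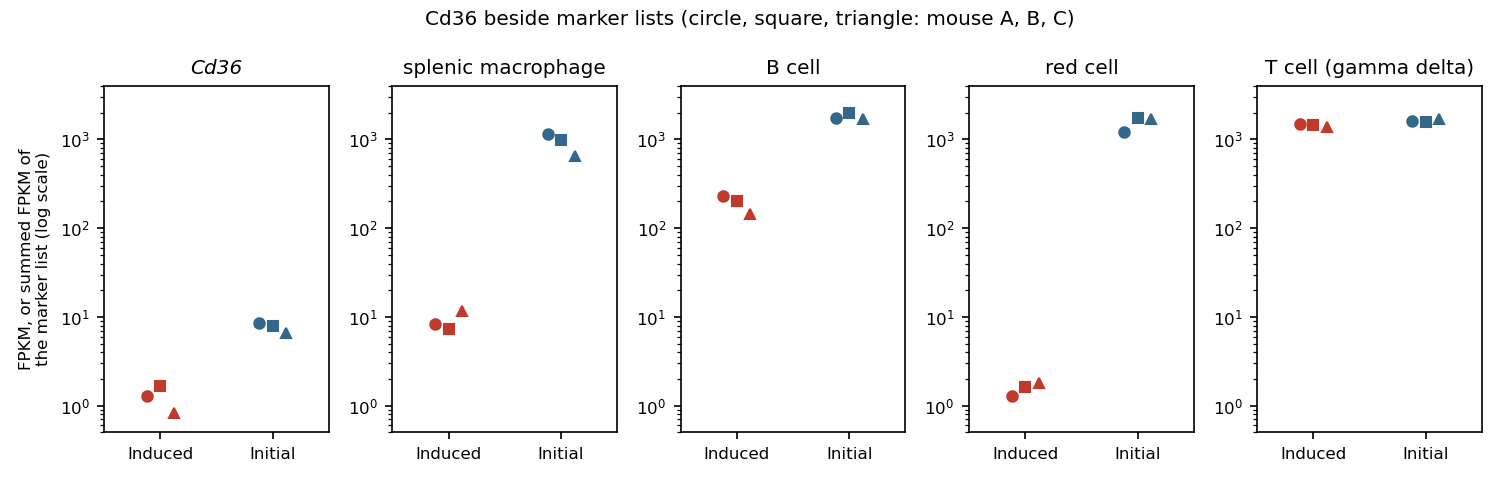
Level of Cd36 (first panel) and summed level of 4 marker lists in each library, in FPKM on a log axis, with Induced libraries left (red), Initial libraries right (blue) and mouse A, B and C as circle, square and triangle. Cd36 and the macrophage, B cell and red cell lists are all lower in Induced libraries, while the T cell list stays between 1378 and 1696 FPKM.

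The RefSeq start of Cd36 used for its promoter window lies inside the annotated gene, which has further transcripts beginning upstream. The window is shown because it differs from those of the enzymes: it holds 3 CpG dinucleotides and 43.0% G or C. Its CpG ratio, observed over the number its base composition gives, is 0.217, below the median of 0.384 over all 32851 windows, while the other 9 genes lie above that median, from 0.459 for Acadm to 0.932 for Acadl. Capitals mark AGGTCA, the single core site of nuclear receptors, and GGGCGG, the GC box, on either strand. The window is chr5:17835847-17836146 on the minus strand of GRCm38.p6, from RefSeq.
Cd36: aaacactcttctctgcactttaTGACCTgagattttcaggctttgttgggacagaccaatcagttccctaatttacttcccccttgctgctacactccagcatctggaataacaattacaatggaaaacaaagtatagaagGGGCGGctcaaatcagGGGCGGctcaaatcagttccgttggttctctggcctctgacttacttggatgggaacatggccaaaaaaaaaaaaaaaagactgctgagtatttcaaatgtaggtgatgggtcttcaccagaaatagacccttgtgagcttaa

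The carnitine step showed the clearest opposition. CPT1A, on the outer mitochondrial membrane, makes acylcarnitines and is the step that malonyl-CoA inhibits; CPT2, on the inner membrane, reverses it. Cpt1a (ENSMUSG00000024900, chromosome 19, 3322334 to 3385733, plus strand) had 22.9, 25.99 and 22.9 FPKM in Induced cells and 32.9, 35.3 and 32.2 FPKM in Initial cells. It fell in every mouse (log2 fold change -0.47, SE 0.08, limma adjusted p = 0.00081). Cpt2 (ENSMUSG00000028607, chromosome 4, 107903981 to 107923610, minus strand) had 12.1, 12.1 and 13.7 FPKM in Induced cells and 7.45, 8.07 and 6.53 FPKM in Initial cells. It rose in every mouse (log2 fold change 0.71, SE 0.10, limma adjusted p = 0.00032). Cpt1a thus stood at 1.90 ± 0.234 times the level of Cpt2 in Induced cells and 4.57 ± 0.314 times in Initial cells (SD, n = 3). This ratio does not depend on how libraries are scaled; its log2 value differed by -1.27 between the groups (SE 0.12, lower in 3 of 3 mice, exact two-sided permutation p = 0.1, the smallest that 3 against 3 libraries allow).

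Of the other carnitine genes, Slc25a20, the carrier that exchanges acylcarnitine for carnitine across the inner membrane, had 34.7 ± 2.09 FPKM in Induced and 26.8 ± 3.09 FPKM in Initial cells (log2 fold change 0.37, adjusted p = 0.0090). Crat, the acetyltransferase for short chains, also rose, with 5.58 ± 0.789 FPKM in Induced and 3.77 ± 0.197 FPKM in Initial cells (log2 fold change 0.46, adjusted p = 0.0080). Slc22a5, the carnitine importer, fell, with 5.95 ± 0.230 FPKM in Induced and 7.35 ± 0.186 FPKM in Initial cells (log2 fold change -0.27, adjusted p = 0.019, with an adjusted p of 0.33 with the T cell scaling and 0.057 without Induced B). The muscle and brain forms of the enzyme, Cpt1b and Cpt1c, did not pass the filter and stayed at or below 0.0262 and 0.553 FPKM in Induced and 0.0391 and 0.0816 FPKM in Initial libraries.

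The windows of Cpt1a and Cpt2 are shown together as a description, and no link to the opposite changes of the genes was tested. Both hold 3 GC boxes, and Cpt1a also holds 1 nuclear receptor core site; capitals mark these on either strand. They are chr19:3323051-3323350 on the plus strand and chr4:107923540-107923839 on the minus strand of GRCm38.p6, from RefSeq. The RefSeq start of Cpt1a, at 3323301, lies inside the annotated gene, which begins at 3322334.
Cpt1a: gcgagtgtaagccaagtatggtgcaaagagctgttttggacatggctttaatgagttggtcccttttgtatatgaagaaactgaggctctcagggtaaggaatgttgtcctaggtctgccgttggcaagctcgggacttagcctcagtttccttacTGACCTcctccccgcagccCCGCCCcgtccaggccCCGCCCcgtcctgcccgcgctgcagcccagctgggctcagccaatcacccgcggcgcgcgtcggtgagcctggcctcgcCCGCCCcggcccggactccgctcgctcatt
Cpt2: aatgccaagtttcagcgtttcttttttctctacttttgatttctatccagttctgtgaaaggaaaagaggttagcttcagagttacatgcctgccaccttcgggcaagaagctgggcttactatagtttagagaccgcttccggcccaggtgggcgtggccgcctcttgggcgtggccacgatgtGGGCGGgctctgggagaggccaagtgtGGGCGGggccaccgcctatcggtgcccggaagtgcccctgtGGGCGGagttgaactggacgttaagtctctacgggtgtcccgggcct

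Among the acyl-CoA dehydrogenases the medium- and long-chain genes rose and the very-long-chain gene fell. Acadl, the long-chain enzyme (ENSMUSG00000026003, chromosome 1, 66830839 to 66863277, minus strand), was the most abundant of the 10 transcripts after culture, with 91.1, 100.4 and 101.2 FPKM in Induced cells against 75.5, 84.3 and 77.0 FPKM in Initial cells. It rose by a log2 fold change of 0.30 (SE 0.07, limma adjusted p = 0.0063). Acadm, the medium-chain enzyme (ENSMUSG00000062908, chromosome 3, 153922357 to 153944632, minus strand), had 41.3, 41.4 and 43.9 FPKM in Induced cells and 38.9, 35.3 and 34.7 FPKM in Initial cells, a narrow separation. Its rise of 0.21 (SE 0.07, limma adjusted p = 0.024) was lost when any library other than Initial A was left out (adjusted p = 0.050 to 0.067), and with TMM-like factors (0.089) or quantile normalization (0.085).

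Acadvl, the very-long-chain enzyme of the inner membrane (ENSMUSG00000018574, chromosome 11, 70010183 to 70015411, minus strand), had 62.7, 65.5 and 68.6 FPKM in Induced cells and 72.2, 72.9 and 75.8 FPKM in Initial cells. The fall of 0.17 on the log2 scale (log2 fold change -0.17, SE 0.06, limma adjusted p = 0.042) was the smallest of the 10. It did not pass with the mouse as a replicate block (adjusted p = 0.052), without any library other than Induced C (0.066 to 0.17), without the filter on low values (0.060) or with the ordinary moderated test (0.073). With the T cell scaling its log2 fold change was 0.0017 (adjusted p = 0.99). Acadvl overlaps Dvl2 on the other strand, which had 8.90 to 10.3 FPKM in Induced and 7.68 to 8.31 FPKM in Initial libraries, and whether reads were assigned by strand is not stated.

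Within libraries, Acadl stood at 1.49 ± 0.0406 times Acadvl in Induced cells and 1.07 ± 0.0744 times in Initial cells. Acadm stood at 0.644 ± 0.0138 times Acadvl in Induced cells and 0.494 ± 0.0414 times in Initial cells. Both ratios were higher in Induced cells in 3 of 3 mice and their groups did not overlap (log2 differences 0.47, SE 0.06, and 0.39, SE 0.07, exact permutation p = 0.1 each). The ratio of Acadl to Acadm overlapped between the groups, at 2.31 ± 0.109 in Induced and 2.18 ± 0.226 in Initial cells (log2 difference 0.09, SE 0.10, higher in 3 of 3 mice, exact permutation p = 0.5, and 0.25 by an exact sign-flip test within mice, the smallest that 3 mice allow). The short-chain enzyme Acads rose with the medium- and long-chain ones, to 19.4 ± 0.795 FPKM in Induced cells against 13.3 ± 1.08 FPKM in Initial cells (log2 fold change 0.52, SE 0.08, limma adjusted p = 0.00063).

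Both subunits of the trifunctional protein fell, and unequally. Hadha encodes the α subunit, which hydrates and dehydrogenates, and Hadhb the β subunit, which is the thiolase. Hadhb (ENSMUSG00000059447, chromosome 5, 30155248 to 30184593, plus strand) had 83.7, 83.2 and 82.9 FPKM in Induced cells and 117.9, 120.0 and 121.1 FPKM in Initial cells. These are the tightest groups of the 10, with a coefficient of variation of 0.447% in Induced and 1.35% in Initial libraries. Counting alone at the estimated depth gives about 1.61 to 1.63% in Induced and 1.36 to 1.46% in Initial libraries, and both observed values lie below these. The log2 fold change of Hadhb was -0.52 (SE 0.05, limma adjusted p = 6.7e-05). Hadha (ENSMUSG00000025745, chromosome 5, 30118304 to 30155162, minus strand) had 41.3, 42.8 and 43.3 FPKM in Induced cells and 52.5, 50.5 and 49.8 FPKM in Initial cells. Its log2 fold change was -0.26 (SE 0.06, limma adjusted p = 0.0048), or -0.09 (adjusted p = 0.37) with the T cell scaling. The ratio of Hadha to Hadhb was 0.510 ± 0.0145 in Induced and 0.426 ± 0.0175 in Initial cells, higher in 3 of 3 mice (log2 difference 0.26, SE 0.04, exact permutation p = 0.1). Against Hadh, the dehydrogenase for shorter chains, Hadha stood at 1.22 ± 0.0160 in Induced and 1.61 ± 0.0808 in Initial cells. The log2 difference was -0.40 (SE 0.04, lower in 3 of 3 mice, exact permutation p = 0.1), while Hadh itself did not pass, with 34.9 ± 1.29 FPKM in Induced and 31.8 ± 1.88 FPKM in Initial cells (limma adjusted p = 0.12).

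Hadha and Hadhb lie head to head, and their RefSeq starts are 273 bases apart on opposite strands. The RefSeq start of Hadha, at 30154980, lies inside the annotated gene, which reaches to 30155162, and annotated Hadhb begins at 30155248. Part of the stretch shown therefore lies within annotated Hadha. The 228 bases that both promoter windows share are shown as a description, and no link to the changes of the genes was tested. They are chr5:30155003-30155230 of GRCm38.p6, written along the strand of Hadhb, with their 1 GC box in capitals and 15 CpG dinucleotides.
Hadha-Hadhb: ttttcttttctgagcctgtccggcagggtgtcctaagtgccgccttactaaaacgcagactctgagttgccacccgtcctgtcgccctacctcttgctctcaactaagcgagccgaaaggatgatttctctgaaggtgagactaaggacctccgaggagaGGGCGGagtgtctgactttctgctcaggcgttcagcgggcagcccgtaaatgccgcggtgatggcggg

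Etfb encodes the β subunit of the electron transfer flavoprotein, which takes electrons from all the acyl-CoA dehydrogenases. Etfb (ENSMUSG00000004610, chromosome 7, 43444083 to 43457800, plus strand) had 82.4, 87.6 and 80.3 FPKM in Induced cells and 57.8, 52.1 and 56.0 FPKM in Initial cells. It rose by 0.58 (SE 0.07, limma adjusted p = 0.00012), well clear of the Initial range. Its partner Etfa, the α subunit, rose less, with 105 ± 0.774 FPKM in Induced and 81.6 ± 3.36 FPKM in Initial cells (log2 fold change 0.36, SE 0.06, limma adjusted p = 0.00082). The ratio of Etfb to Etfa was 0.794 ± 0.0408 in Induced and 0.678 ± 0.0312 in Initial cells (log2 difference 0.23, SE 0.06, higher in 3 of 3 mice, exact permutation p = 0.1). Etfdh, the membrane enzyme that passes these electrons to ubiquinone, had 35.8, 36.1 and 36.1 FPKM in Induced and 34.2, 33.9 and 33.2 FPKM in Initial cells and did not pass (limma adjusted p = 0.19). Etfrf1 (listed as Lyrm5), a regulator of the flavoprotein, had 11.8 ± 0.823 FPKM in Induced and 9.88 ± 0.633 FPKM in Initial cells (log2 fold change 0.24, adjusted p = 0.039, lost under 9 of 17 alternatives).

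Eci1, an isomerase that moves double bonds so that unsaturated chains can be oxidised, was the least even of the enzymes. Eci1 (ENSMUSG00000024132, chromosome 17, 24426641 to 24439348, plus strand) had 13.8, 10.7 and 18.6 FPKM in Induced cells and 20.0, 21.9 and 24.0 FPKM in Initial cells, so Induced C came within a short distance of Initial A. The coefficient of variation in Induced libraries was 27.5%, against about 4.58 to 6.07% for counting alone at the estimated depth. The log2 fold change was -0.61 (SE 0.18, limma adjusted p = 0.016), with an adjusted p of 0.059 without Initial C and 0.061 with the T cell scaling. Eci2, a second isomerase found in mitochondria and peroxisomes, rose, with 32.5 ± 1.85 FPKM in Induced and 24.8 ± 1.54 FPKM in Initial cells (log2 fold change 0.38, SE 0.08, limma adjusted p = 0.0025). The ratio of Eci1 to Eci2 was 0.439 ± 0.0961 in Induced and 0.890 ± 0.129 in Initial cells, lower in 3 of 3 mice (log2 difference -1.03, SE 0.22, exact permutation p = 0.1). Adjusted over the 8 ratios computed, the exact permutation p was 0.11 for the 7 whose groups did not overlap and 0.5 for Acadl to Acadm.

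**Figure D3:**
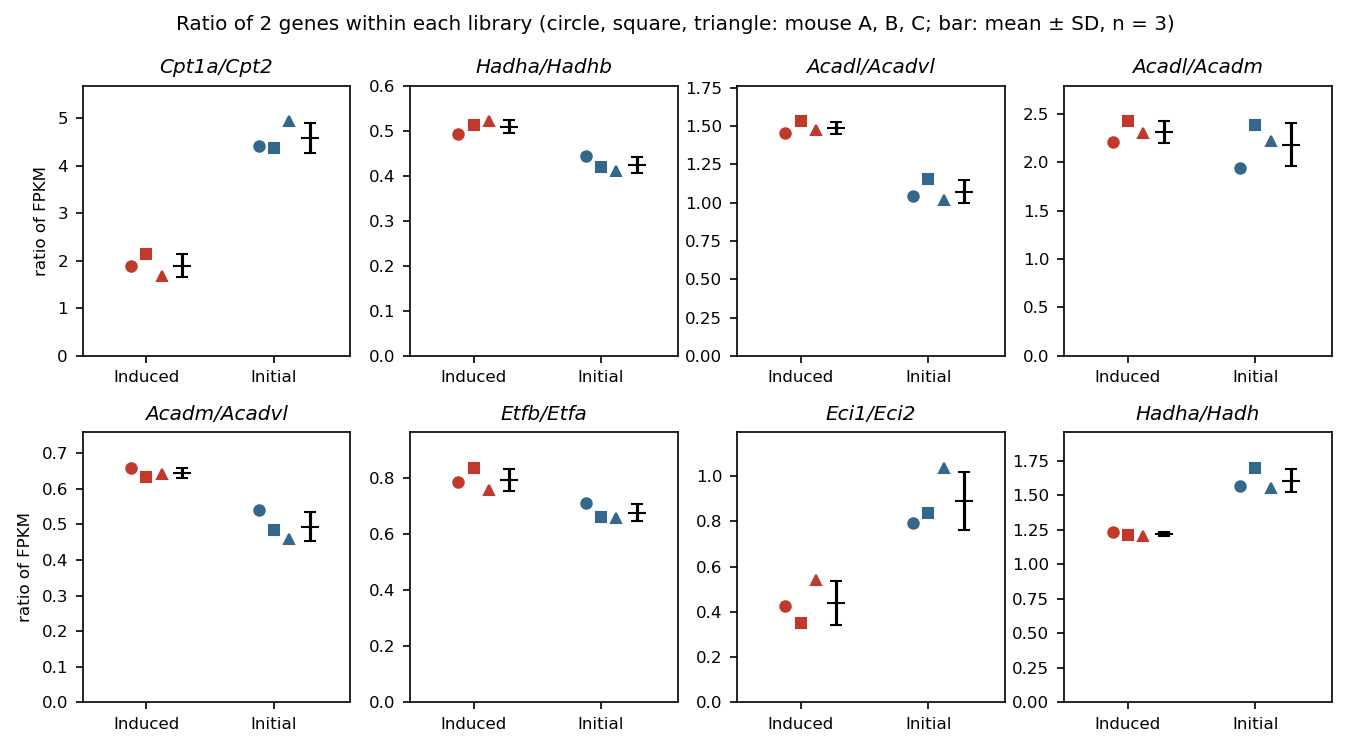
Ratio of the FPKM of 2 genes in each library (vertical axes from 0), with Induced libraries left (red), Initial libraries right (blue), mouse A, B and C as circle, square and triangle, and the mean ± SD. The ratio of Cpt1a to Cpt2 lies between 1.68 and 2.14 in Induced and between 4.37 and 4.94 in Initial libraries; only Acadl to Acadm overlaps between the groups.

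The order of levels changed with culture. In Induced cells it ran Acadl, Etfb, Hadhb, Acadvl, Hadha, Acadm, Cpt1a, Eci1, Cpt2, Cd36, and the ranges of Etfb and Hadhb, of Hadha and Acadm, and of Eci1 and Cpt2 overlapped. In Initial cells it ran Hadhb, Acadl, Acadvl, Etfb, Hadha, Acadm, Cpt1a, Eci1, Cd36, Cpt2, and the ranges of Acadl and Acadvl, of Etfb and Hadha, of Acadm and Cpt1a, and of Cd36 and Cpt2 overlapped. Hadhb was first in Initial cells at 119.7 ± 1.61 FPKM, and Acadl was first in Induced cells at 97.5 ± 5.59 FPKM.

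Whether some of the 10 genes passed depended on what the libraries were scaled to. Of the 10 genes only Acadvl changed sign, to 0.0017 with the T cell scaling. With the T cell scaling, the median of all genes rose by 0.15 on the log2 scale, 63.8% of all called genes rose instead of 52.9%, and 4 of the 10 genes rose while 3 (Cd36, Cpt1a and Hadhb) fell. Of the genes scaled to, Cd3d and Cd3e themselves fell. Relative to the median of all genes, the changes under that scaling were -2.03 for Cd36, -0.49 for Cpt1a, 0.68 for Cpt2, 0.20 for Acadm, 0.29 for Acadl, -0.18 for Acadvl, -0.27 for Hadha, -0.53 for Hadhb, 0.57 for Etfb and -0.63 for Eci1.

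**Figure D4:**
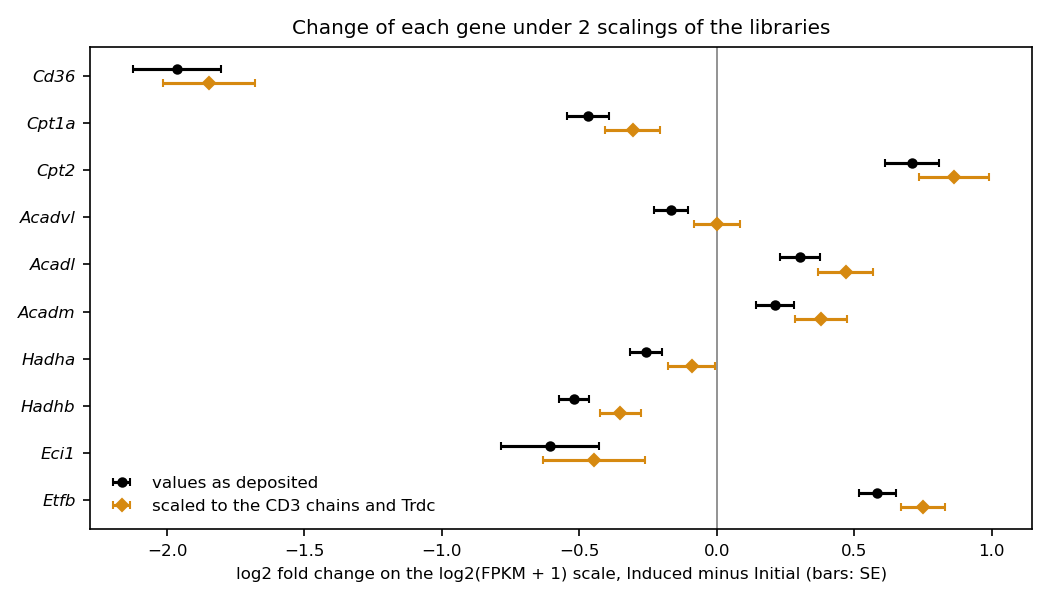
Log2 fold change, Induced minus Initial, on the log2(FPKM + 1) scale (horizontal axis, bars are SE) of the 10 genes, with the values as deposited (black circles) and with the T cell scaling (orange diamonds). The second scaling shifts each gene to the right; Acadvl comes to 0.0017 and Cd36 stays the lowest, at -1.85.

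Other genes of fatty acid metabolism were read from 7 lists with 87 genes in the tables, of which 69 passed the filter. Of these 26 rose, 24 fell and 19 did not pass, so 72.5% were called against 70.4% of all genes, and the median log2 fold change was 0.15 against 0.03. With the T cell scaling 35 rose and 14 fell. In the uptake and activation list 7 of 11 tested genes rose and 3 fell, with a median of 0.61, and 7 rose and 2 fell with the T cell scaling. Fabp5, an intracellular fatty acid binding protein, had 28.9 ± 0.577 FPKM in Induced and 8.39 ± 1.75 FPKM in Initial cells (log2 fold change 1.69, SE 0.13, limma adjusted p = 1.0e-05). Acsl4, an acyl-CoA synthetase that favours polyunsaturated chains, had 26.2 ± 2.49 FPKM in Induced and 9.93 ± 0.357 FPKM in Initial cells (log2 fold change 1.31). Fabp4, a binding protein of fat cells and macrophages, fell, with 0.752, 0.478 and 0.621 FPKM in Induced and 3.94, 2.04 and 1.54 FPKM in Initial cells (log2 fold change -1.06), and so did the synthetase gene Acsl3 (3.73 ± 0.479 FPKM in Induced and 7.07 ± 0.276 FPKM in Initial cells, log2 fold change -0.78).

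Of 14 tested mitochondrial β-oxidation genes outside the 10, 6 rose, 3 fell and 5 did not pass, with a median of 0.24, and 10 rose and 2 fell with the T cell scaling. Acads and Decr1, a reductase for unsaturated chains (6.80 ± 0.235 FPKM in Induced and 4.73 ± 0.310 FPKM in Initial cells, log2 fold change 0.44), had the largest rises. Acot2, a mitochondrial thioesterase that frees fatty acids from coenzyme A, fell to 3.69 ± 0.789 FPKM in Induced cells against 29.2 ± 3.27 FPKM in Initial cells (log2 fold change -2.69, SE 0.14, limma adjusted p = 1.3e-06). Acot2 has a close copy in Acot1, so the split of reads between them is uncertain. Acad10, a less studied dehydrogenase, fell, with 1.10 ± 0.180 FPKM in Induced and 1.98 ± 0.277 FPKM in Initial cells (log2 fold change -0.50, adjusted p = 0.066 with quantile normalization). Of 4 electron transfer genes 2 rose and 2 did not pass, and all 4 rose with the T cell scaling.

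The peroxisomal list was divided, with 4 rises and 5 falls among 13 tested genes and a median of -0.07. Without any 1 of the Initial libraries 3 fell, and with the T cell scaling 4 rose and 1 fell. Crot, which makes carnitine esters of the chains that peroxisomes shorten, had 80.0 ± 2.81 FPKM in Induced and 36.4 ± 4.25 FPKM in Initial cells (log2 fold change 1.12, SE 0.09, limma adjusted p = 1.6e-05), and the reductase gene Decr2 had 14.3 ± 1.53 FPKM in Induced and 8.55 ± 0.204 FPKM in Initial cells (log2 fold change 0.67). The transporter gene Abcd3 (6.26 ± 0.680 FPKM in Induced and 8.96 ± 0.268 FPKM in Initial cells, log2 fold change -0.46) and Ehhadh, the peroxisomal bifunctional enzyme (4.59 ± 1.004 FPKM in Induced and 6.44 ± 0.217 FPKM in Initial cells, log2 fold change -0.43, adjusted p = 0.026), fell, the second with its call lost under 5 of 17 alternatives.

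Of 10 tested lipolysis and lipid droplet genes 4 rose and 5 fell. The droplet coat genes Plin3 (64.4 ± 5.52 FPKM in Induced and 18.6 ± 2.31 FPKM in Initial cells, log2 fold change 1.74) and Plin2 rose. Plin2 had 118.3, 122.6 and 60.1 FPKM in Induced and 36.8, 37.3 and 33.2 FPKM in Initial cells (log2 fold change 1.40, SE 0.27, limma adjusted p = 0.0033), with Induced C far below the other 2 Induced libraries. Hilpda, an inhibitor of lipolysis, fell to 19.2 ± 1.44 FPKM in Induced cells against 64.6 ± 3.49 FPKM in Initial cells (log2 fold change -1.70), and Dgat2, a triglyceride synthase, to 0.353 ± 0.0217 FPKM against 2.09 ± 0.725 FPKM (log2 fold change -1.17).

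Of 14 tested regulators 7 fell, 1 rose and 6 did not pass, with a median of -0.27. With the T cell scaling 3 rose and 5 fell. Foxo1, a transcription factor of quiescent lymphocytes, had 9.64, 9.38 and 10.8 FPKM in Induced and 51.0, 46.3 and 45.8 FPKM in Initial cells (log2 fold change -2.15, SE 0.08, limma adjusted p = 3.0e-07). Rxra, a partner of the PPAR receptors, had 1.55 ± 0.265 FPKM in Induced and 4.11 ± 0.555 FPKM in Initial cells (log2 fold change -1.002). Pprc1, a coactivator related to PGC-1, rose, with 13.7 ± 1.68 FPKM in Induced and 9.30 ± 0.0356 FPKM in Initial cells (log2 fold change 0.50). Ppara, the receptor best known for driving this pathway in liver, had no row, taken as 0, in all Induced libraries and in 2 of 3 Initial libraries, and was listed with 0.0177 FPKM in Initial A. Apart from Blk, the markers of macrophages, B cells and red cells given beside Cd36 were lower in Induced libraries. So were Fabp4, Dgat2, Rxra and the other genes that fell. The part of these other cells in the values was not tested.

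**Figure D5:**
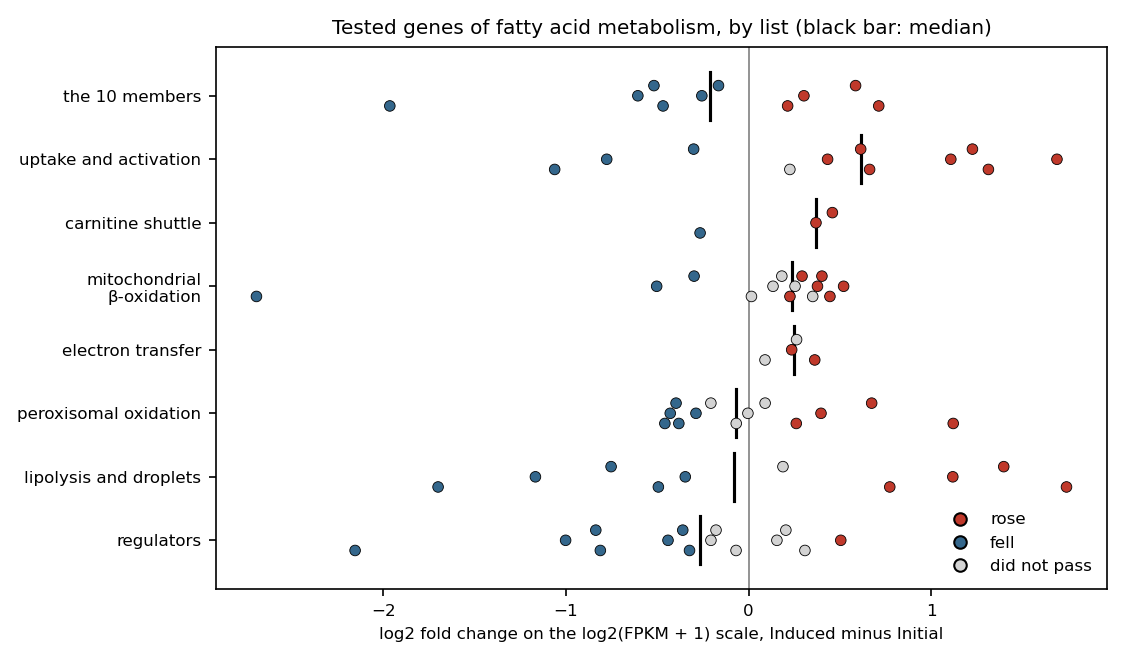
Log2 fold change, Induced minus Initial, on the log2(FPKM + 1) scale for each tested gene of the 10 genes and of the 7 lists, with genes that rose in red, fell in blue and did not pass in grey; the black bar is the median. Uptake and activation genes have a median of 0.61, regulators of -0.27, and the 10 genes of -0.21.

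The promoter windows, 250 bases before to 50 after a RefSeq start, were searched on both strands for a few motifs, as a description of these letters only. GGGCGG was found in 8 of the 10 genes and in 35.7% of all 32851 windows, and AGGTCA in 4 (Cd36, Cpt1a, Acadm and Acadvl) and 16.3% of all windows. GCATGCG, the core of the NRF1 motif, was found in Acadm alone among the 10 and in 3.58% of all windows. CACGTG, the E-box (7.15% of all windows), TCAAGGTCA, the extended core site of ERR receptors (0.423%), and the direct repeat DR1 of 2 AGGTCA copies in 1 direction with 1 base between them (0.0396%) were in none of the 10 windows. AGGTCA lies inside TCAAGGTCA and DR1.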

How the data were processed

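Per the labels' protocols, the authors prepared messenger RNA libraries with a Vazyme VAHTS kit, read them on an Illumina sequencer and computed FPKM with Cuffdiff. The submitters' processing notes name CASAVA, HISAT2 2.0.5, Cuffdiff 1.3.0 and 2.2.1, and the build mm9. Per the file headers, each deposited table holds a gene identifier, symbol, locus and FPKM value for 1 library. The listed loci match GRCm38: of 26669 identifiers found in GENCODE's annotation of GRCm38, 99.9% lie on the same chromosome and 91.0% inside the listed span, so gene positions come from GENCODE. Genes with no row were set to 0.

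Values were tested as log2(FPKM + 1) in limma 3.58.1 (R 4.3.3) (eBayes with trend and robust options, two-sided tests), keeping genes that reached FPKM 1 in 3 or more libraries. FPKM values are not counts, so no count model was run. Ratios of 2 genes used an exact permutation test over libraries (scipy 1.17.1, Python 3.11.15). The 10 genes, the lists and the ratios were chosen with earlier results of these data known. All 10 genes are named; each list gives its 2 strongest called rises and falls by log2 fold change, and others as the text needs them. Etfdh, Cpt1b, Cpt1c and Ppara were named after their values were seen. Of the listed genes, Eci3 and Col3a1 have no values here.

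Mouse letters in the labels pair the libraries by animal. Deviations from the group means correlated at 0.0393, 0.0307 and 0.1308 for mice A, B and C, and at -0.1324 to 0.0988 between different mice. The other settings tried were a pseudocount of 0.1 or 5, dropping the filter or raising it to FPKM 5, 4 other scalings, the mouse as a replicate block, limma without trend and robust options, and omitting 1 library at a time. Leaving out markers of other cells and immunoglobulin genes was added after the data were seen. P-values rest on 3 libraries per group from the same mouse letters, and the main fit did not use that pairing. The limma variances also borrow from all tested genes, and the spread of Induced libraries includes any that culture added.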

Additional observations from a re-analysis of the deposited data

How the results depend on the processing

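Of 170 values of the 10 genes under 17 alternatives, 150 kept their direction and their side of the threshold, 19 lost the call and 1 reversed. Cd36, Cpt1a, Cpt2, Acadl, Hadhb and Etfb kept their calls under all 17. The reversal was Acadvl, with a log2 fold change of 0.0017 with the T cell scaling; the cause was not tested. With that scaling 3 of the 10 genes fell, and 14 of the 69 genes of the other lists fell. With markers of other cells and immunoglobulin genes left out, an alternative chosen after seeing the data, 3 of the 10 genes rose and 6 fell, the call of Acadm being lost (adjusted p = 0.064). That alternative only rescaled the remaining genes to a common sum and did not remove RNA of other cells from their values. With the mouse as a replicate block 4 of the 10 genes rose and 5 fell, and among the 26 named genes of the other lists no call changed. Without 1 library at a time, 3 to 4 of the 10 genes rose and 4 to 6 fell. All 64 alternatives of the 8 ratios kept their direction, but the log2 difference for Acadl to Acadm was only 0.0049 without Initial A. Depth was only estimated, and limits Cd36 in Induced cells most.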
